A study of Homo sapiens with 6 samples.

Results

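LIN28A, LIN28B, HMGA1, HMGA2, IGF2BP1, IGF2BP2, IGF2BP3, DIS3L2 and DICER1 are oncofetal genes and processing enzymes tied to the let-7 microRNAs, and they are described here in A2780 ovarian carcinoma cells with and without CDK12. They are 9 of the 60483 genes in the deposited counts, taken by symbol through their Ensembl identifiers, and all 9 passed the filter on low counts that left 16198 genes for testing. The 9 genes were chosen by the difference between KO and WT seen in these same libraries, so their values are given as a description and no p-value is attached to them.

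RNA-seq was run on 3 libraries of A2780 wild-type cells (WT) and 3 libraries of an A2780 CDK12 knock-out line (KO). A2780 is an established human ovarian carcinoma cell line. WT is the parental line. KO is 1 homozygous clone obtained after 2 rounds of transfection and selection with CRISPR/Cas9, which was aimed at the CDK12 gene in its exon 1, so CDK12 loss and the history of that clone cannot be told apart. The labels list no drug treatment and do not say whether the 3 libraries of a group came from separate cultures; p-values therefore measure only the spread between these libraries.

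LIN28A and LIN28B are RNA-binding proteins of embryonic cells that bind let-7 precursors and block their maturation. Mature let-7 in turn represses mRNAs that carry matches to its seed, among them HMGA2, an architectural chromatin protein, the IGF2BP mRNA-binding proteins and LIN28 itself. In most adult tissues let-7 is abundant and most of these genes are silent, IGF2BP2 being an exception. Many carcinomas express the silent ones again.

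Total counts ranged from 11098400 (WT replicate 3) to 30899045 (WT replicate 2). CDK12 itself had 103, 125 and 116 CPM in WT (CPM being counts divided by the TMM-adjusted library total) and 98.9, 92.9 and 102 CPM in KO. That is a log2 fold change of -0.23 ± 0.0582 (SE, adjusted p = 8.2e-04), which does not measure the coding change that the editing made. Of 13 markers of ovarian carcinoma and epithelium, 4 had at most 3 counts in every WT library. KRT18, an epithelial keratin, stood at 59.9 ± 1.95 CPM in WT and 103 ± 2.72 in KO, while PAX8, an ovarian carcinoma factor named after its values were seen, had at most 6 counts in any library. By adjusted p alone 3 of the 5 tested markers rose and 2 fell, where 31.9% and 32.0% of all tested genes did. EPCAM, also named after its values were seen, fell from 3.19 to 2.17 CPM (log2 fold change -0.53, adjusted p = 0.0119). VIM, an intermediate filament protein of mesenchymal cells, was the main part of the summed marker level, which lay between 7150 and 7480 CPM in WT and between 1600 and 1620 CPM in KO. VIM fell by 2.28 on the log2 scale (SE 0.053, adjusted p = 2.98e-27). Of 10 markers of other cell types, 5 were tested. Past both thresholds 3 of these fell and 2 rose, where 7.73% and 8.30% of all tested genes did. COL1A1, a fibrillar collagen, fell from 629 ± 25.0 to 122 ± 9.97 CPM (log2 fold change -2.37, adjusted p = 2.98e-27). DCN and LUM, proteoglycans of connective tissue, had 19, 23 and 9 and 20, 17 and 6 counts in WT and 0 in each KO library. VWF, a marker of endothelium, rose from 0.192 to 0.703 CPM (log2 fold change 2.0, adjusted p = 1.04e-04), and CD14, of monocytes, from 0.374 to 0.709 CPM (log2 fold change 1.02, adjusted p = 0.0156), a call that was lost in DESeq2 (0.99), in voom with limma (0.97) and without KO replicate 2 (0.68) or WT replicate 2 (0.7). The summed level of the 10, most of it COL1A1, went from 603 to 651 CPM in WT down to 114 to 134 CPM in KO, with 4 of them at no more than 3 counts in every WT library and 6 in every KO library. The part of these shifts in the values below was not tested, and in bulk RNA a smaller number of expressing cells and less RNA per cell cannot be told apart.

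The let-7 seed links the genes by sequence. RefSeq gives 9 mature let-7 family sequences, made from 12 genes, and all 9 share bases 2 to 8, GAGGUAG. Members of the family are shown with that seed in capitals.
hsa-let-7a-5p: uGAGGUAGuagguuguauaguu
hsa-let-7b-5p: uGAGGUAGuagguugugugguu
hsa-let-7g-5p: uGAGGUAGuaguuuguacaguu
hsa-miR-98-5p: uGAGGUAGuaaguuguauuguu

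The complement of the seed, CTACCTC on the sense strand, was searched in the 3′ UTR of the GENCODE reference transcript of each gene (GRCh38). It occurs at least 1 time in 9.71% of 19228 genes and at least 3 times in 36 of them (0.187%). Of the 9 genes, 7 hold it. LIN28B, HMGA2 and IGF2BP1 have 4 matches each, a number that 12 genes (0.0624%) reach or pass. Their 3′ UTRs are long, at 4549, 2999 and 6701 bases, where the median gene has 1064. The part of UTR length in these numbers was not tested. LIN28A, HMGA1, IGF2BP2 and IGF2BP3 have 1 each, and the search found none in DIS3L2 and DICER1. The match nearest to the stop codon of LIN28B and of HMGA2, 2 of the IGF2BP1 matches and the only match of IGF2BP2, IGF2BP3 and LIN28A are printed because they carry the 8-base form, in which an A follows. Capitals mark the 7 bases that pair with the seed.
LIN28B at chr6:105078811-105078834 (+): tacccggttgcaaagtCTACCTCa
HMGA2 at chr12:65963297-65963320 (+): cgccaacgttcgatttCTACCTCa
IGF2BP1 at chr17:49051060-49051083 (+): ctgtgtgcgaagtaaaCTACCTCa
IGF2BP1 at chr17:49053697-49053720 (+): ccagcagtgctagtaaCTACCTCa
IGF2BP2 at chr3:185644220-185644243 (-): aaacacacagaagaagCTACCTCa
IGF2BP3 at chr7:23311795-23311818 (-): gtgcatttttactcaaCTACCTCa
LIN28A at chr1:26427347-26427370 (+): tgcacagcctattgaaCTACCTCa

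All of these sites lie in exonic 3′ UTR of the reference annotation, and they are matches of letters, not measured binding sites. The choice of transcript matters for HMGA2: its longest annotated 3′ UTR belongs to another isoform and holds 0 matches, against 4 in the reference transcript (2999 bases of UTR). With the 8-base form CTACCTCA the members keep 2 matches in LIN28B, 1 in HMGA2, 3 in IGF2BP1 and 0 in HMGA1.

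The LIN28 paralogs behaved differently. LIN28A (ENSG00000131914, chr1:26410817-26429728, plus strand) had 1793, 2142 and 781 counts in WT and 1507, 1720 and 1170 in KO. That is 65.4, 71.4 and 70.3 CPM in WT and 61.3, 63.8 and 65.7 CPM in KO, and the ranges overlap. Its log2 fold change was -0.12 (SE 0.054), a KO level of 92.1% of WT.

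LIN28B (ENSG00000187772, chr6:104936616-105083332, plus strand) had 1994, 2433 and 841 counts in WT and 2, 0 and 0 in KO. In CPM these are 72.7, 81.1 and 75.7 in WT, with 0.0813 in KO replicate 1 and 0 in the other KO libraries. In WT the gene stood well above the detection limit, and in KO it was at or near 0 counts. The 0 counts of KO replicates 2 and 3 allow a level of up to 0.111 and 0.168 CPM. Scaled for depth, the ratio of summed WT to summed KO counts was 2670, with a 95% interval of 738 to 22000 (exact binomial) that covers counting error only. The fitted log2 fold change of -11.13 depends on the prior count, as 2 KO libraries held none.

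HMGA1 and HMGA2 encode AT-hook proteins that bind the minor groove of AT-rich DNA. HMGA2 (ENSG00000149948, chr12:65824460-65966291, plus strand) had 746, 794 and 751 CPM in WT and 101, 93.1 and 100 CPM in KO. Every KO library lay far below every WT library, yet HMGA2 was still counted 1786 to 2508 times per KO library. The level in KO was 7.8-fold lower, a log2 fold change of -2.96 (SE 0.052).

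HMGA1 (ENSG00000137309, chr6:34236873-34246231, plus strand) had 415, 425 and 388 CPM in WT and 233, 231 and 230 CPM in KO. The groups do not overlap, and the KO libraries were tightly grouped, at 231 ± 1.26 CPM (SD, n = 3). Its log2 fold change was -0.82 (SE 0.0473), so HMGA1 kept 56.5% of its WT level where HMGA2 kept 12.8%.

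The IGF2BP proteins bind mRNAs, many of them marked by m6A, and protect them from decay. IGF2BP1 (ENSG00000159217, chr17:48997385-49056145, plus strand) had 456, 534 and 481 CPM in WT and 4.15, 4.49 and 4.15 CPM in KO. The KO libraries held 102, 121 and 74 counts, a low but measurable level. The gene was 114-fold lower in KO (log2 fold change -6.84, SE 0.0791).

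IGF2BP3 (ENSG00000136231, chr7:23310209-23470491, minus strand) had 53.6, 51.7 and 47.4 CPM in WT. In KO it had 1, 0 and 1 counts, against 1469, 1551 and 527 in WT. The depth-scaled ratio of summed counts was 1800, with an exact binomial 95% interval of 497 to 14800. LIN28B and IGF2BP3 were thus the members that came to within a few counts of 0.

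IGF2BP2 (ENSG00000073792, chr3:185643130-185825042, minus strand), the family member with the widest expression in adult tissues, had 127, 135 and 128 CPM in WT and 62.5, 63.6 and 66.5 CPM in KO. All KO libraries were lower. Its log2 fold change of -1.02 (SE 0.0511) lies just beyond the threshold of -1, and that of HMGA1 just short of it. It falls to between -0.99 and -1.0 under upper-quartile scaling, with a filter of 10 counts in every library, or without WT replicate 2, and is then no longer called.

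DIS3L2 and DICER1 are not oncofetal genes; they act on the let-7 precursor. DIS3L2, the exonuclease that degrades precursors uridylated under LIN28, had 46.1, 48.6 and 52.3 CPM in WT and 46.5, 51.5 and 51.0 CPM in KO, with a log2 difference of 0.03 (SE 0.0597). The ranges overlap. DICER1, the RNase that cuts precursors to mature microRNAs, had 75.4, 88.1 and 83.6 CPM in WT and 101, 89.1 and 97.5 CPM in KO. All KO values were higher, by a narrow margin between 88.1 and 89.1 CPM, and its log2 fold change was 0.22 (SE 0.0577). DIS3L2 lies at chr2:231961245-232344350 (plus strand) and DICER1 at chr14:95086228-95158010 (minus strand).

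**Figure D1:**
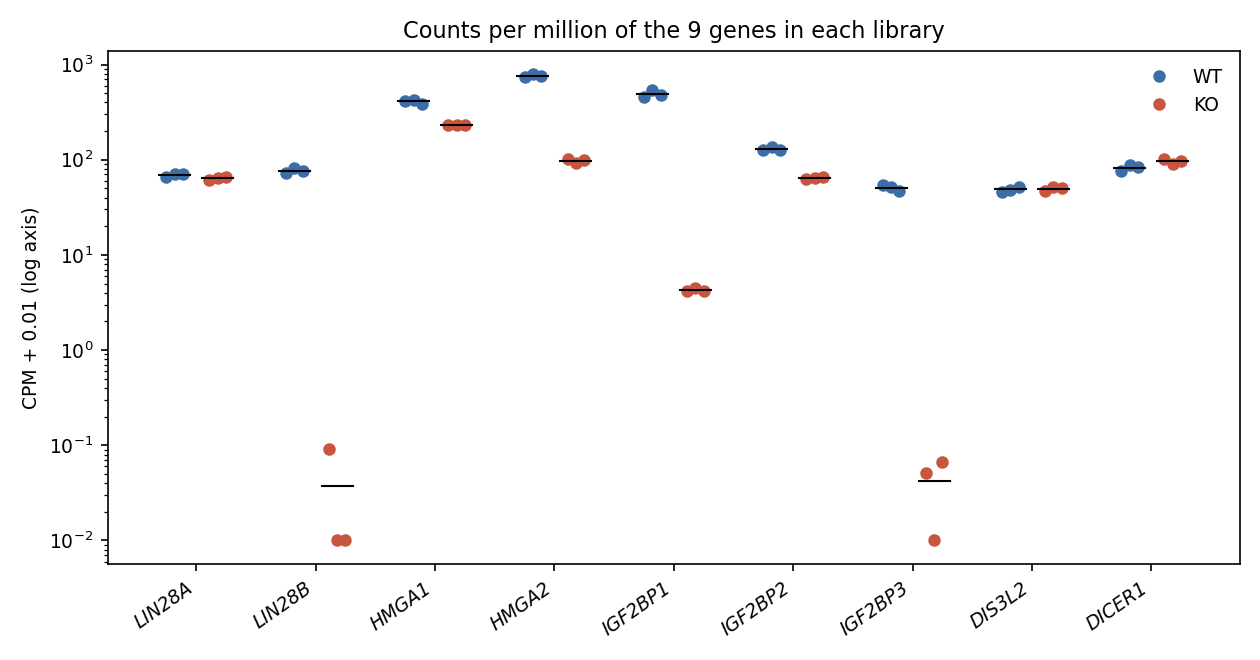
CPM + 0.01 on a log axis for each of the 9 genes, with a point for each of the 3 WT (blue) and 3 KO (red) libraries and a black line at the group mean. LIN28B and IGF2BP3 drop to the bottom of the axis in KO and IGF2BP1 to 4.15 to 4.49 CPM, while LIN28A and DIS3L2 overlap between the groups.

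The rule used for all genes asked for an adjusted p below 0.05 with a log2 fold change beyond 1 in either direction. By it 5 of the 9 were lower in KO and 0 were higher. Over all tested genes 7.73% were lower and 8.30% were higher by that rule. With adjusted p alone, 6 of 9 were lower and 1 was higher, where 32.0% and 31.9% of all tested genes were. WT and KO libraries did not overlap for 7 of the 9 (6 lower, 1 higher), nor for 66.3% of all tested genes. The median log2 fold change was -1.02 over the 9 and 0.0 over all tested genes. As the 9 were selected on this difference, nothing is read from these shares.

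Levels of different genes were compared as CPM per kilobase of merged exon length (RPKM). The order in WT was HMGA1 (176), IGF2BP1 (50.9 ± 4.18), HMGA2 (50.7 ± 1.76), IGF2BP2 (24.4), LIN28A (17.4), LIN28B (12.9), IGF2BP3 (5.96), DIS3L2 (4.32) and DICER1 (3.72 RPKM). Only IGF2BP1 and HMGA2 are neighbours in that order whose libraries overlap. In KO the order was HMGA1 (99.4), LIN28A (16.0), IGF2BP2 (12.0), HMGA2 (6.51), DIS3L2 (4.38), DICER1 (4.32), IGF2BP1 (0.443), LIN28B (0.00456) and IGF2BP3 (0.00378 RPKM). There DIS3L2 and DICER1 overlap, as do LIN28B and IGF2BP3. Rank depends on the length used, above all for HMGA2, whose merged exons span 15070 bases and its reference transcript 4117. Per reference transcript, HMGA2 was second in both groups, at 186 RPKM in WT and 23.8 RPKM in KO, and LIN28B fell behind DIS3L2 in WT (14.0 against 14.6 RPKM, overlapping).

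Each family changed in make-up. LIN28B supplied 42.6% of the summed LIN28 RPKM in WT (range 41.9 to 43.2%) and 0.0296% in KO, and the sum went from 30.2 ± 1.48 to 16.0 ± 0.55 RPKM. In the IGF2BP family, IGF2BP1 supplied 62.6% and IGF2BP2 30.0% in WT. In KO, IGF2BP2 supplied 96.4% of a sum that went from 81.2 ± 5.04 to 12.5 ± 0.383 RPKM, although IGF2BP2 itself was lower there. HMGA2 supplied 22.4% of the HMGA sum in WT and 6.14% in KO by merged exons, or 46.5% and 16.5% by reference transcripts. The KO cells thus retained LIN28A, HMGA1 and IGF2BP2 RNA as the main members of the 3 families by either length.

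**Figure D2:**
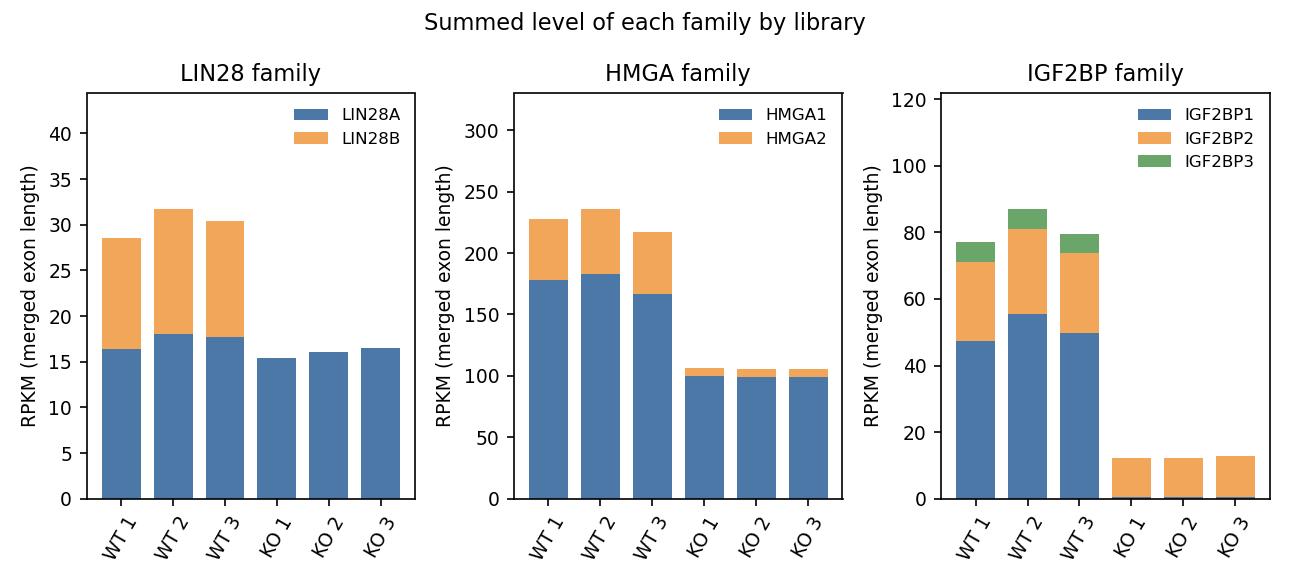
RPKM per merged exon length, stacked by gene, in each of the 6 libraries for the LIN28, HMGA and IGF2BP families; each panel has its own linear axis from 0. LIN28A, HMGA1 and IGF2BP2 form nearly the whole bar in the 3 KO libraries, while the WT bars hold 42.6% LIN28B and 62.6% IGF2BP1 on average.

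The let-7 precursors are the substrates of LIN28. LIN28 recognises a GGAG motif in the loop region of most of them, and 9 of the 12 RefSeq hairpins of the family hold GGAG between the arms. Hairpins with and without it are shown, with GGAG in capitals.
MIRLET7A1 (chr9:94175957-94176036, plus strand): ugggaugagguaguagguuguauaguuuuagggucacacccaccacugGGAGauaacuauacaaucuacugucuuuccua
MIRLET7G (chr3:52268278-52268361, minus strand): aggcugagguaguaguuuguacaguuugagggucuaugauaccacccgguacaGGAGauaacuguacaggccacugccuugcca
MIRLET7B (chr22:46113686-46113768, plus strand): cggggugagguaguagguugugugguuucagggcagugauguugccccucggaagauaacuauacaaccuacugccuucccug

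These libraries do not measure mature microRNAs. Of 19 precursors and host transcripts listed, 16 were matched to a counted gene and 6 passed the filter. MIRLET7BHG, the host transcript of let-7a-3 and let-7b, had 184, 168 and 72 counts in WT and 336, 435 and 221 in KO. It rose from 6.26 ± 0.583 to 14.1 ± 1.9 CPM, with no overlap (log2 fold change 1.19, SE 0.108, adjusted p = 2.22e-11). WDR82, the gene that hosts let-7g, rose by less (206 to 248 CPM, log2 fold change 0.27, adjusted p = 1.22e-05). HUWE1, which hosts let-7f-2 and miR-98, had 359 ± 45.7 CPM in WT and 388 ± 14.3 in KO (adjusted p = 0.0996), and MIR100HG, the host of let-7a-2, had 91.5 ± 12.7 and 94.3 ± 3.44 CPM (adjusted p = 0.609). MIRLET7D, the 1 hairpin counted often enough to test, had 11, 15 and 5 counts in WT and 4, 23 and 14 in KO (adjusted p = 0.418). MIR100HG and MIRLET7D were named after their values were seen. The other matched hairpins had at most 4 counts in any library.

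The machinery around these RNAs moved little. None of 18 genes of small RNA processing passed both thresholds in edgeR, nor in voom with limma or DESeq2 (0 each). By adjusted p alone, and equally at an unadjusted p under 0.05, 3 rose and 8 fell, with a median log2 fold change of -0.03. Over all tested genes 31.9% rose and 32.0% fell by adjusted p, and 8.30% and 7.73% past both thresholds. The counts of the lists that follow stand beside the same shares. DDX5, a helicase of the Drosha complex and 1 of the 2 most abundant of them, rose by 0.15 on the log2 scale (adjusted p = 0.00617), and HNRNPA1, which binds microRNA precursors, fell by 0.16 (adjusted p = 0.00365). Of genes named after their values were seen, DROSHA rose by 0.24 (adjusted p = 6.34e-05) and XPO5, the export factor for precursors, fell by 0.34 (adjusted p = 5.37e-07).

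Among 14 tested LIN28 partners and uridylation factors, 1 fell past both thresholds, and by adjusted p alone 4 rose and 6 fell (median -0.07). The 1 gene was MSI1, Musashi 1, an RNA-binding protein of neural stem cells. It had 119, 159 and 58 counts in WT and 18, 22 and 12 in KO (log2 fold change -2.70, adjusted p = 5.65e-14). HNRNPU and DHX9, the most abundant of the list, had log2 fold changes of 0.14 (adjusted p = 0.0166) and -0.05 (adjusted p = 0.407). TUT4, the uridyl transferase recruited by LIN28A, had 92.6 ± 2.4 CPM in WT and 107 ± 3.73 in KO (log2 fold change 0.20, adjusted p = 7.57e-04), and its paralog TUT7 had 42.1 ± 2.53 and 45.4 ± 1.7 CPM (adjusted p = 0.0921); both were named after their values were seen.

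Other mRNAs known as let-7 targets moved in both directions, and more of them fell than rose. Of 32 tested, 6 fell and 3 rose past both thresholds, and by adjusted p alone 19 fell and 7 rose (median log2 fold change -0.28). Over all tested genes 7.73% fell and 8.30% rose past both thresholds, and 32.0% and 31.9% by adjusted p. CCND1, cyclin D1, had 341 ± 14.0 CPM in WT and 166 ± 2.89 in KO (log2 fold change -1.04, adjusted p = 5.63e-19), and CDK6, its kinase partner, had 17, 34 and 7 counts in WT and 3, 1 and 2 in KO (log2 fold change -3.20).

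ARID3A, a DNA-binding regulator of B cells and early embryos, fell by 1.28 on the log2 scale (67.9 to 27.9 CPM, adjusted p = 7.9e-19). NR6A1, the germ cell nuclear factor, fell by 2.81 (7.56 to 1.06 CPM, adjusted p = 1.7e-16). PLAGL2, a zinc-finger factor, fell by 1.04 (62.6 to 30.6 CPM, adjusted p = 8.92e-16) and THBS1, the secreted thrombospondin 1, by 1.97 (57.5 to 14.7 CPM, adjusted p = 5.02e-22).

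The 3 that rose encode receptors and an adaptor. IGF1R, the receptor for insulin-like growth factors, had 985, 1161 and 418 counts in WT and 2168, 2317 and 1652 in KO (log2 fold change 1.25, adjusted p = 2.45e-19). IRS2, an insulin receptor substrate, had 9, 12 and 0 counts in WT and 103, 73 and 49 in KO (log2 fold change 3.39, adjusted p = 2.11e-11). ACVR1C, an activin-type receptor, had 9, 8 and 1 counts in WT and 27, 27 and 14 in KO (log2 fold change 1.88, adjusted p = 2.3e-05). MYC, a target shared with the IGF2BP proteins and named after its value was seen, rose by 0.29 on the log2 scale, from 128 ± 6.53 to 156 ± 1.9 CPM (adjusted p = 6.03e-06).

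Beyond the listed targets, tested genes were set in groups by their number of CTACCTC matches in the reference 3′ UTR, leaving out the 9 genes. The median log2 fold change was -0.02 for 11272 genes with 0 matches, -0.04 for 1240 with 1, -0.03 for 147 with 2 and -0.03 for 29 with 3 or more. The share lower in KO past both thresholds was 7.93%, 8.39%, 12.9% and 17.2% in that order, and the share higher was 6.94%, 7.1%, 6.8% and 6.9%. The last group held only 5 genes that were lower. Median UTR length moved with the number of matches, from 1170 to 6941 bases, and its part in these shares was not tested.

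mRNAs known as IGF2BP targets also moved in both directions. Of 13 tested, 2 rose and 2 fell past both thresholds, and by adjusted p alone 4 rose and 7 fell (median -0.19). Over all tested genes 8.30% rose and 7.73% fell past both thresholds, and 31.9% and 32.0% by adjusted p. FSCN1, the actin-bundling protein fascin, had 2042, 2404 and 849 counts in WT and 78, 64 and 34 in KO (log2 fold change -4.92, adjusted p = 1.21e-29). MAPK4, an atypical MAP kinase, was near the limit of counting at 0.62 and 0.21 CPM (log2 fold change -1.64, adjusted p = 5.59e-04).

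H19, an imprinted fetal long RNA that binds IGF2BP proteins, had 103, 118 and 54 counts in WT and 832, 871 and 511 in KO. It rose from 4.18 ± 0.592 to 31.6 ± 2.64 CPM (log2 fold change 2.98, adjusted p = 4.82e-23). IGF2, the imprinted growth factor beside it, named after its values were seen, had 1, 1 and 0 counts in WT and 14, 6 and 10 in KO, below the filter, so it was not tested. None of the 16 writers, erasers and readers of m6A passed both thresholds in edgeR, voom with limma or DESeq2 (0 each). By adjusted p alone 4 rose and 5 fell (median -0.03), and at an unadjusted p under 0.05 there were 5 in each direction. YTHDF2 and YTHDF3, the most abundant of them, had log2 fold changes of -0.08 (adjusted p = 0.171) and 0.10 (adjusted p = 0.11).

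Other oncofetal and pluripotency genes were mostly silent in both groups: of 22 listed, 8 passed the filter. Of these 4 fell and 2 rose past both thresholds, where 7.73% and 8.30% of all tested genes did. By adjusted p alone 4 fell and 4 rose, where 32.0% and 31.9% of all tested genes did. The 2 that rose past both thresholds were H19, given above, and ZFP42. PEG10, an imprinted gene derived from a retrotransposon, had 8279, 10272 and 3677 counts in WT and 5, 3 and 3 in KO (log2 fold change -10.95, adjusted p = 2.95e-36). SALL4, a zinc-finger factor of embryonic stem cells, had 3494, 3650 and 1431 counts in WT and 81, 87 and 49 in KO (log2 fold change -5.33, adjusted p = 5.55e-33). PLAG1, a fetal zinc-finger factor, had 13, 14 and 9 counts in WT and 0, 2 and 1 in KO (log2 fold change -3.45).

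DNMT3B, a de novo DNA methyltransferase, fell from 38.1 ± 1.92 to 18.8 ± 0.851 CPM, at the threshold (log2 fold change -1.01, adjusted p = 1.13e-14). In the other direction, ZFP42, a zinc-finger marker of embryonic stem cells, had 16, 23 and 3 counts in WT and 58, 75 and 45 in KO (log2 fold change 2.06, adjusted p = 5.29e-09). The list median of -0.35 is that of 8 genes and changes sign under some alternatives. It was 0.31 after thinning to the smallest total and 0.33 with 10 counts required in every library. Without KO replicate 1 it stayed at -0.35. None of 10 other high mobility group genes passed both thresholds in edgeR, voom with limma or DESeq2 (0 each), and 3 rose and 3 fell by adjusted or unadjusted p alone (median -0.08). HMGB1 and HMGB2, the most abundant of them, had log2 fold changes of -0.14 (adjusted p = 0.00847) and -0.10 (adjusted p = 0.075).

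The position of the genes on the chromosome was examined through the 5 tested genes on each side. The study reports a higher DNA content and chromosome number in KO than in WT. Copy number was not measured in these libraries, and its part in the values was not tested. Over the 90 neighbours of the 9 genes, 12 were lower and 5 higher past both thresholds, and the median log2 fold change was -0.05. Over all tested genes 7.73% were lower and 8.30% higher by that rule. LIN28B had the most, with 4 of 10 lower, in a window of 6.75 Mb that was the widest of the 9. Its nearest tested neighbours, HACE1 on one side (77 kb away) and BVES on the other (13 kb), had log2 fold changes of -1.32 (adjusted p = 2.66e-17) and -2.67 (adjusted p = 2.38e-20). BVES encodes a membrane protein of muscle and epithelium, and its antisense RNA BVES-AS1 fell by 2.39 (adjusted p = 5.68e-07). GRIK2, a glutamate receptor gene 2855 kb away, had 144, 158 and 56 counts in WT and 2, 2 and 0 in KO. By adjusted p alone 7 of the 10 were lower and 1 was higher, where 32.0% and 31.9% of all tested genes were.

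The 3 neighbours of IGF2BP3 that were lower past both thresholds lay on the same side of it. GPNMB, a lysosomal and melanosomal glycoprotein gene 35 kb away, had 1082, 1178 and 444 counts in WT and 1, 1 and 2 in KO (log2 fold change -9.29, adjusted p = 1.29e-29). KLHL7, a ubiquitin ligase adaptor, fell by 1.32 (adjusted p = 1.63e-18), and the pseudogene AK3P3 fell by 2.18 (adjusted p = 9.06e-06). MALSU1, the nearest gene, which overlaps the end of IGF2BP3 on the opposite strand, had 865, 1009 and 382 counts in WT and 722, 883 and 503 in KO (log2 fold change -0.13, adjusted p = 0.0941). TRA2A, the nearest gene on the other side, fell by 0.25, past the adjusted p threshold alone (2.11e-04).

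For HMGA2 and IGF2BP1 the neighbours that were lower past both thresholds, 2 for each, overlap the gene itself. By adjusted p alone 5 of the 10 neighbours of HMGA2 and 4 of those of IGF2BP1 were lower, with 2 and 1 higher. Over all tested genes 32.0% were lower and 31.9% higher in that way. RPSAP52, on the opposite strand of HMGA2, had 37, 33 and 9 counts in WT and 10, 8 and 10 in KO (log2 fold change -1.49, adjusted p = 9.95e-05), and ENSG00000277945, within HMGA2 on the same strand, fell by 2.36 (adjusted p = 1.14e-07). At IGF2BP1, the antisense RNA ENSG00000250838 had 19, 16 and 5 counts in WT and 0 in each KO library, and the pseudogene ENSG00000251550 inside the gene fell by 2.52 (adjusted p = 7.82e-09). The small RNA gene RNU6-826P, also inside IGF2BP1, had 16, 6 and 7 counts in WT and 0 in each KO library and was not tested. Apart from these, HMGA2 and IGF2BP1 had no neighbour past both thresholds. The strand setting of the counting is not given in the sources used here, so reads of overlapping genes on opposite strands may not have been told apart.

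Of the 10 tested neighbours of each remaining member, LIN28A and HMGA1 had 2 higher past both thresholds and IGF2BP2 had 1. DIS3L2 had 1 lower. No direction is read from these counts. Over all tested genes 8.30% were higher and 7.73% lower past both thresholds. Near LIN28A, DHDDS, a dolichol synthesis enzyme 3 kb away, rose by 2.33 (34.3 to 174 CPM, adjusted p = 4.33e-27) and CD52, a leukocyte surface glycoprotein, had 2, 5 and 3 counts in WT and 117, 120 and 90 in KO. Near IGF2BP2, DGKG, a diacylglycerol kinase, had 3, 4 and 0 counts in WT and 142, 140 and 80 in KO. Near HMGA1, GGNBP1 and ENSG00000225339 rose by 3.05 and 1.96 (adjusted p = 3.28e-08 and 4.28e-14). EFHD1, a calcium-binding protein gene 262 kb from DIS3L2, fell by 4.11 (adjusted p = 3.01e-11), and 0 of the 10 neighbours of DICER1 passed both thresholds in edgeR, voom with limma or DESeq2, with 3 at an unadjusted p under 0.05.

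Other genes that share sequence or position with a member carried few counts. The 8 listed HMGA1 pseudogenes had 388 counts over all 6 libraries, against 28443 for HMGA1 in WT alone. Of those with at least 10 counts in a library, HMGA1P8 rose by 1.15 (adjusted p = 0.00203), HMGA1P2 fell by 0.79 (adjusted p = 0.017) and HMGA1P4 stood at -0.11 (adjusted p = 0.707). How reads that fit both HMGA1 and a pseudogene were counted is not given in the sources used here. NRBF2P6, inside DIS3L2, stood at -0.27 (adjusted p = 0.276), DICER1-AS1, antisense to DICER1, rose by 0.47 (adjusted p = 0.0182), and MIR6835, inside HMGA1, had 1 to 10 counts in each library and was not tested.

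Promoters of the genes that came to within a few counts of 0 were read from the RefSeq table (GRCh38, 250 bases before to 50 after the start). The table has 2 starts for LIN28B. The one shown is the start of the GENCODE reference transcript, and capitals mark the E box CACGTG, a palindrome that reads the same on both strands and occurs in 7.26% of the 35116 promoters. The LIN28B window holds it 1 time and the IGF2BP3 window 2 times, while the window of the other LIN28B start holds it 0 times.
LIN28B at chr6:104956857-104957156 (+): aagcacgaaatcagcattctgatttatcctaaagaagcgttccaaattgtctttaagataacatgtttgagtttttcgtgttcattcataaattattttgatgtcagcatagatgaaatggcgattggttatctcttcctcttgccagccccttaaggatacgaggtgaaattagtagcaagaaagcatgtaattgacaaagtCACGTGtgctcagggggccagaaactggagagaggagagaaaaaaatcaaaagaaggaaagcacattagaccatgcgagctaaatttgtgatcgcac
IGF2BP3 at chr7:23470442-23470741 (-): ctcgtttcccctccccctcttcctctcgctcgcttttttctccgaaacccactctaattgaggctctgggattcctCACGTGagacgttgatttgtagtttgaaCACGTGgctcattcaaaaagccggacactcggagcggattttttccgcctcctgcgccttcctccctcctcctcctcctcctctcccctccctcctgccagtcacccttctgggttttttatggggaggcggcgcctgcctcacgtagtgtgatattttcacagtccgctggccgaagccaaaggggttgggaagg

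These windows differ in CpG content. The LIN28B start shown has 8 CpG (41.6th percentile of all promoters), the other LIN28B start, 16142 bases upstream, has 37 (90.1th percentile), and IGF2BP3 has 17, where the median promoter has 14. Counts per gene do not show which LIN28B start the WT cells used. A GC box, GGGCGG on either strand, occurs in 45.0% of promoters, 2 times at the upstream LIN28B start and in neither window shown.

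The tested genes whose level over the 6 libraries was most like that of a member were found by the smallest root mean square difference of log2 CPM from their own WT mean. For HMGA2 these were GABBR2 (0.0216), STXBP5 (0.0334) and PTPRF (0.0431 log2 units), a GABA receptor subunit, a syntaxin-binding protein and a receptor phosphatase. For IGF2BP1 they were UBE2E3 (0.112), RASGRP3 (0.138) and PAPPA (0.141). For LIN28B they were FIGN (0.343), TM4SF18-AS1 (0.348) and COL11A1 (0.386), each with 0 to 2 counts in the KO libraries and 758 to 3400 in the WT libraries. The measure runs over 6 libraries in 2 groups, so it mainly matches genes by the size of their difference between KO and WT.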

How the data were processed

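RNA-seq counts per gene were available for 3 A2780 WT and 3 A2780 CDK12 KO libraries, grouped by the genotype in the labels. The authors deposited raw counts without normalization: stranded single-end reads were checked with FastQC, aligned with STAR to GRCh38 and counted with HTSeq-Count. Versions, annotation release, strand setting and treatment of multiply mapped reads are not given in the sources used here. Total counts per library were 11098400 to 30899045, so 3 counts correspond to 0.1 to 0.27 CPM; such floors and the intervals of count ratios cover counting error only.

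KO was compared with WT over all genes in R 4.3.3 with edgeR 4.0.16: filterByExpr (minimum count 10, minimum total 15), TMM scaling and the two-sided quasi-likelihood test with Benjamini-Hochberg adjustment over 16198 genes. Every adjusted p printed comes from that fit. Each SE of a log2 fold change is the absolute fold change divided by the square root of the quasi-likelihood F statistic. It is thus derived from the test, and can be too small for genes with few counts in a group. As in the study's methods, genes past both thresholds have an adjusted p below 0.05 with a log2 fold change beyond 1 or -1. The biological coefficient of variation was 4.35%. Alternatives were voom with limma 3.58.1 (the tools of the study), DESeq2 1.42.0, other scalings and filters, thinning to the smallest total, and leaving out each library. On simulated counts with 200 changed genes among 16198, edgeR recovered 200 with 3 false calls. The planted changes all lay well beyond the fold threshold, in genes well above the low-count filter. Changes near the threshold and low-count genes were not tried.

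Identifiers were matched to GENCODE 44 (56321 of 60483 listed genes), which gave positions, lengths and 3′ UTRs; microRNA and promoter sequences are RefSeq's. The promoter table was matched by symbol for LIN28B, HMGA1, IGF2BP2, IGF2BP3, DIS3L2 and DICER1, 6 of the 9 members, and not for LIN28A, HMGA2 and IGF2BP1. The members, gene lists and tests were chosen with earlier results of these data known. The genes named are the members; of each list those past both thresholds, with the 2 most abundant where fewer than 2 passed; the nearest tested neighbours of LIN28B, HMGA2, IGF2BP1 and IGF2BP3 and every neighbour past both thresholds; overlapping genes and pseudogenes with at least 10 counts in a library; and the 3 genes most like LIN28B, HMGA2 and IGF2BP1. Exceptions are stated where they occur. A result for 1 gene of the IGF2BP target list is not reported here.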

Additional observations from a re-analysis of the deposited data

How the results depend on the processing

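No paired analysis was possible because the labels give the WT and KO libraries no shared replicate number. Requiring 10 counts in every library, which by its construction removes genes that are near 0 in a group, left 568 genes called higher and 684 called lower against 1345 and 1252, and 2 of the 9 members called lower against 5: LIN28B and IGF2BP3 were not tested and IGF2BP2 stood at -1.0. Under the other alternatives run, these counts stayed within 1.5 times. HMGA2 kept a log2 fold change between -2.99 and -2.92 and IGF2BP1 between -6.9 and -6.77 over all alternatives. LIN28B ranged from -13.76 (without KO replicate 1, the only KO library with counts) to -10.5, and IGF2BP3 from -11.02 to -9.47. DIS3L2 lay between -0.02 and 0.07. The median of the oncofetal list changed sign, lying between -0.16 and 0.39 under the alternatives that moved it by 0.1 or more. DNMT3B lost its call under 6 alternatives, with log2 fold changes of -0.97 to -1.0, and PLAGL2 under 2. Low-count genes, CDK6, ACVR1C, MAPK4, PLAG1, VWF, CD14, DCN and LUM among them, were not tested once libraries were thinned to the smallest total.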
